A study of Columba livia with 19 samples.

Results

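Recessive red pigeons homozygous for the e1 allele were sampled for this series in separate batches, and their feather collars are compared here with each other: 3 e1/e1 birds of the 2020 batch (birds 6, 11 and 12) against 3 e1/e1 birds of the 2017 batch (birds 1, 3 and 4). The 6 birds were taken from the 19 of the series by genotype and batch as labelled, without reference to any measured value. Per the labels, the earlier birds were sequenced in 2017 and the later ones were collected in 2020, so the year names a batch and no single step of the work. All birds were domestic rock pigeons (Columba livia). The comparison birds were 5 wild-type birds of 2020, 4 wild-type birds of 2017 and 3 recessive red e2/e2 birds of 2020, and 1 carrier of a wild-type and an e1 allele of 2020 was kept out of every fit. Secondary flight feathers of 1 wing were plucked and regrown for 9 to 10 days in each bird, and polyadenylated RNA was sequenced from the collar after the dermal pulp was removed. The labels give no age, sex, breed or housing, and no bird was sampled in both batches as far as they show. The files pair no gene identifier with a gene name, so the collar could not be checked against melanocyte or epidermal markers, the pigment pathway lists could not be applied, and SOX10 was not analysed here.

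The collar is the ring of dividing epidermis at the base of a growing feather. Melanocytes settled among its keratinocytes hand their pigment to the cells that become barbs and barbules. SOX10 encodes a transcription factor that holds melanocyte identity and activates enzymes of eumelanin synthesis. The e1 and e2 alleles are overlapping deletions upstream of SOX10 in pigeons, and homozygotes deposit red to yellow pheomelanin in place of black to brown eumelanin. The comparison asks which transcripts of 1 genotype differ between batches, and whether transcripts lost or gained in recessive red stand at the same level in both sets of birds.

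Sequencing was shallower in the later e1 birds. Total counts were 17271989 in bird 6, 14803482 in bird 11 and 13559606 in bird 12 of 2020, against 18452980 in bird 1, 23168538 in bird 3 and 18992949 in bird 4 of 2017, with no overlap. The totals averaged 15211692 ± 1889557 in e1 of 2020 and 20204822 ± 2580814 in e1 of 2017 (SD, n = 3 each; exact permutation test, 2-sided, p = 0.1, which is the smallest p that 3 against 3 birds allow, adjusted p = 0.3 over 3 library measures). A mean of 14246 ± 120 genes had a count in e1 of 2020 and 14275 ± 60.8 in e1 of 2017 (SD, n = 3 each; exact permutation test, p = 0.8, adjusted p = 0.8). The 10 most abundant genes took 6.13 ± 0.866% of the counts in e1 of 2020 and 7.35 ± 0.364% in e1 of 2017 (SD, n = 3 each; exact permutation test, p = 0.2, adjusted p = 0.3). Depth and batch therefore moved together, and the part of depth in the results below was not tested beyond scaling each library. Bird 6 of 2020 stood apart from the other e1 birds in A306_00008195, a transcript lost in recessive red, of which it had a level above that of every wild-type bird. In A306_00007909 and A306_00005498, also lost in recessive red, it had 7.24 and 5.99 CPM and lay with or near the other e1 birds, far from wild type. Whether its sample is as labelled was not tested on sequence, and the main counts below are also given without it.

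Among 13026 genes tested, 503 stood higher in e1 collars of 2020 than in those of 2017, which is 3.86% of all tested, and 468 stood lower, which is 3.59% (edgeR's quasi-likelihood test with Benjamini-Hochberg adjustment, adjusted p under 0.05, here termed called). Most of these shifts were modest. At least a 2-fold difference was reached by 125 of the higher and 51 of the lower genes, and at least a 4-fold difference by 14 and 7. The median log2 fold change, 2020 over 2017, was 0.78 over the higher genes and -0.66 over the lower genes, while over all genes tested it was 0.01. These are bulk collars, in which fewer cells of a type and less RNA per cell cannot be told apart.

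Separation of the birds followed the calls. All 3 e1 birds of 2020 lay above all 3 of 2017 in 497 of the 503 higher genes, and all 3 lay below in 467 of the 468 lower genes. Over all genes tested, every 2020 bird was above every 2017 bird in 1829 genes (14%) and below in 1831 (14.1%). The called-higher genes together took 5.67%, 6.37% and 6.30% of the scaled counts in birds 6, 11 and 12 of 2020, and 3.51%, 3.59% and 3.41% in birds 1, 3 and 4 of 2017. The called-lower genes took 4.94%, 4.42% and 4.31% in the same 2020 birds and 7.25%, 7.52% and 7.35% in the 2017 birds. Both sets were chosen for a difference between these same birds, so the separation within them and the shares are descriptive.

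Calls were least frequent among the least abundant genes. In the class with a mean log2 CPM (CPM being counts scaled to the size of the library) above 8, 40 of 570 genes (7.02%) were called higher and 25 (4.39%) lower in 2020. In the class at or below 2, 35 of 2574 genes (1.36%) were called higher and 18 (0.70%) lower. In the classes from 2 to 4, 4 to 6 and 6 to 8, 2.0%, 4.0% and 6.6% were called higher. In the same classes 2.3%, 4.5% and 5.7% were called lower. Lower calls were thus most frequent from 6 to 8 and not in the top class. The classes differ in counting error as well as in the genes they hold.

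The largest called shift among genes with clear counts and separated birds was that of A306_00002302. It stood at 190, 184 and 380 CPM in e1 birds 6, 11 and 12 of 2020, against 7.35, 7.47 and 8.69 CPM in e1 birds 1, 3 and 4 of 2017. The batches lay far apart, with a mean 32.1 times as high in 2020 and a log2 fold change of 5.00 ± 0.47 (SE; adjusted p = 6.47e-05, edgeR). Wild-type birds showed the same split, with 96.4 to 351 CPM in 2020 and 6.82 to 10.7 CPM in 2017. The e2 birds of 2020 averaged 305.8 ± 85.7 CPM (SD, n = 3) and the carrier, also of 2020, stood at 96.6 CPM. The e1 and wild-type ranges overlapped in either year, and e2 birds and carriers were sampled in 2020 only.

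A306_00015105 had 4.86, 10.1 and 4.57 CPM in e1 birds of 2020, given here and below in the order 6, 11, 12, and 0.396, 0.985 and 0.737 CPM in e1 birds of 2017, in the order 1, 3, 4. Its log2 fold change was 3.18 ± 0.52 (SE; adjusted p = 0.00313, edgeR), and the shift in wild type was 2.89. A306_00015684 had 18.6, 9.94 and 8.17 CPM in 2020 and 1.47, 2.91 and 2.32 CPM in 2017, a log2 fold change of 2.45 ± 0.49 (SE; adjusted p = 0.00859, edgeR). Both were rare transcripts in 2017 and were clearly detected in every e1 bird of 2020.

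A306_00015070 was the tightest of the leading higher genes in the earlier birds. It had 42.3, 76.8 and 46.6 CPM in e1 of 2020 against 13.3, 14.1 and 12.2 CPM in e1 of 2017, with a log2 fold change of 2.06 ± 0.22 (SE; adjusted p = 6.48e-05, edgeR). A306_00005598 had 47.4, 55.2 and 63.3 CPM in 2020 against 14.8, 11.8 and 15.3 CPM in 2017, with a log2 fold change of 1.99 ± 0.22 (SE; adjusted p = 8.03e-05, edgeR). In both genes the e1 groups lay about 4 times apart, far beyond the range within either group. A306_00014866 had 19.0, 28.2 and 16.1 CPM in 2020 against 6.22, 5.10 and 3.95 CPM in 2017, and A306_00007905 had 16.3, 22.9 and 15.9 CPM against 5.66, 3.40 and 5.11 CPM. Their log2 fold changes were 2.05 ± 0.24 and 1.96 ± 0.33 (SE; adjusted p = 2.27e-04 and 0.00382, edgeR). A306_00006853 was more scattered, with 44.5, 40.5 and 84.7 CPM in 2020 against 17.4, 9.58 and 15.8 CPM in 2017 and a log2 fold change of 1.99 ± 0.45 (SE; adjusted p = 0.0156, edgeR). Its call was lost without bird 12 of 2020 or without bird 3 or bird 4 of 2017 (adjusted p up to 0.0714). Wild-type birds shifted the same way in all 8 of these leading higher genes, by 1.65 to 4.52 on the log2 scale.

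**Figure D1:**
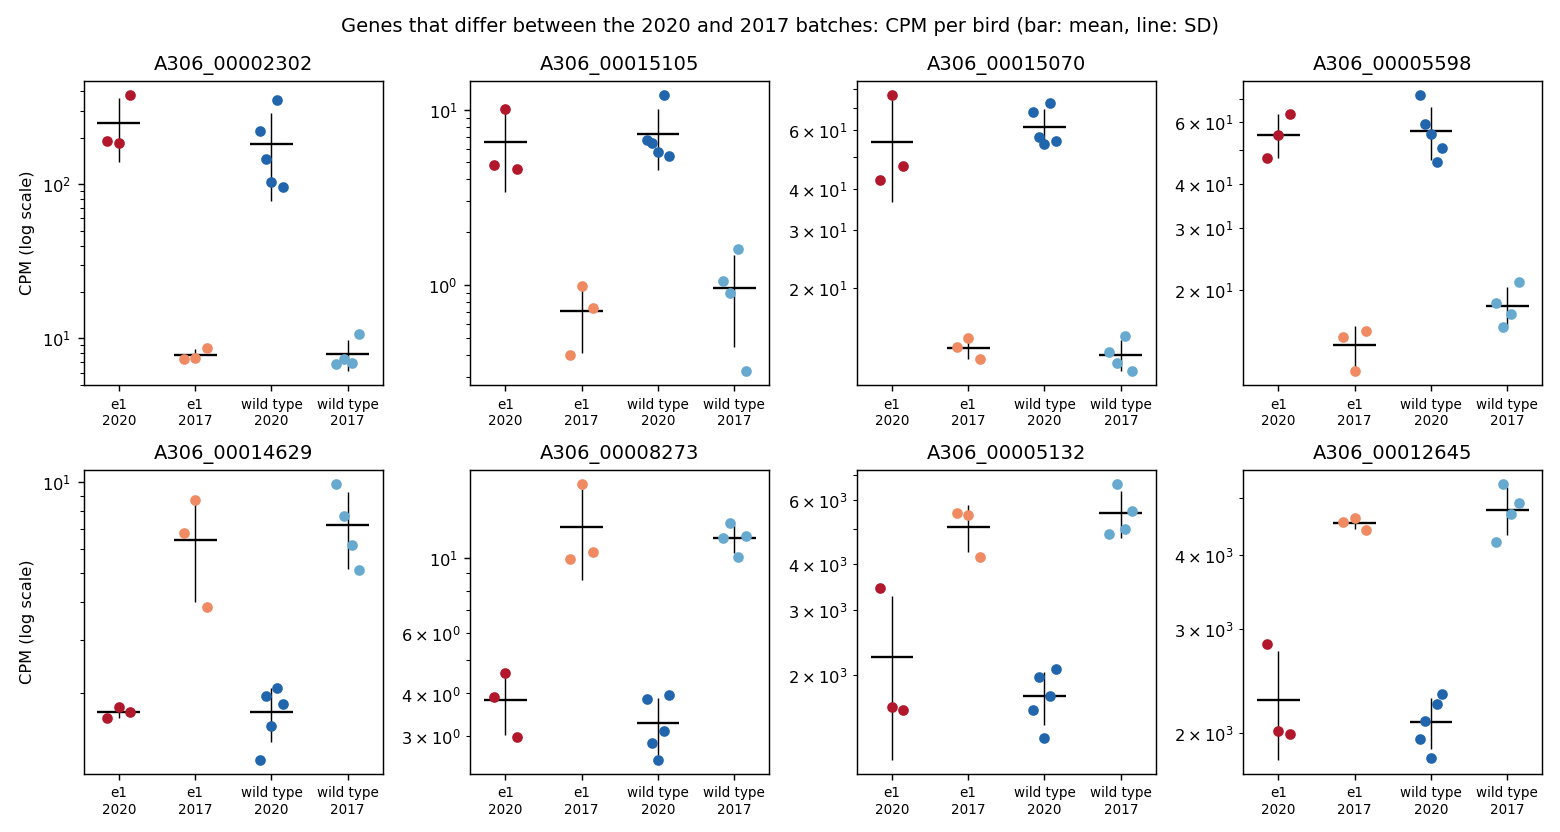
CPM of 8 genes (log scale) in each bird of e1 2020, e1 2017, wild type 2020 and wild type 2017, with a bar for the group mean and a line for its SD. The top row holds genes higher in 2020, led by A306_00002302, and the bottom row genes lower in 2020. In each of these 8 genes every e1 bird and every wild-type bird of 2020 lies on the same side of all birds of 2017. The 8 are a selection from the genes named in the text and were not drawn by rule. In others that are not shown, such as A306_00006815 and A306_00005587, wild-type birds overlap between years.

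Among genes lower in the later birds, A306_00006815 led with 91.6, 53.7 and 33.1 CPM in e1 of 2020 against 209, 199 and 288 CPM in e1 of 2017. Its log2 fold change was -1.96 ± 0.42 (SE; adjusted p = 0.0114, edgeR). The 3 birds of 2020 lay below the 3 of 2017. Wild type overlapped between years, with 59.8 to 109 CPM in 2020 and 80.1 to 258 CPM in 2017. It was nevertheless called lower too, with a log2 fold change of -0.95 (adjusted p = 0.0428, edgeR). The difference between the e1 and wild-type shifts was -1.02 ± 0.53 (SE) and was not called (adjusted p = 0.992, edgeR). A306_00014629 was even across the 2020 birds at 1.66, 1.81 and 1.73 CPM, against 6.79, 8.68 and 3.84 CPM in 2017, with a log2 fold change of -1.89 ± 0.34 (SE; adjusted p = 0.00549, edgeR). A306_00008273 had 3.91, 4.58 and 2.98 CPM in 2020 against 9.90, 16.5 and 10.4 CPM in 2017, with a log2 fold change of -1.68 ± 0.32 (SE; adjusted p = 0.00653, edgeR). These last genes fell by about as much in wild type, with shifts of -2.05 for A306_00014629 and -1.80 for A306_00008273. A306_00003645 behaved likewise, with a log2 fold change of -1.27 ± 0.25 in e1 (SE; adjusted p = 0.00779, edgeR) and -1.37 in wild type.

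Other lower genes shifted less in wild type than in e1. A306_00005844 had 1.60, 3.10 and 1.11 CPM in e1 of 2020 against 5.32, 10.2 and 5.48 CPM in e1 of 2017, a log2 fold change of -1.85 ± 0.36 (SE; adjusted p = 0.00735, edgeR), while the shift in wild type was -0.43. A306_00005587 had 3.86, 4.45 and 3.67 CPM against 10.7, 7.56 and 13.1 CPM, a log2 fold change of -1.39 ± 0.24 (SE; adjusted p = 0.00413, edgeR), with a wild-type shift of -0.25. The differences between these shifts, e1 less wild type, were -1.42 ± 0.45 and -1.14 ± 0.30 (SE), and neither passed the test across all genes (edgeR, adjusted p = 0.992 for each; unadjusted p = 0.00563 and 0.00161). A306_00010282 and A306_00011001 completed the leading lower genes, with log2 fold changes of -1.53 ± 0.38 and -1.26 ± 0.29 (SE; adjusted p = 0.0228 and 0.0176, edgeR). A306_00005844, A306_00010282 and A306_00011001 lost their calls in a fit of the 6 e1 birds alone (adjusted p = 0.0672, 0.0781 and 0.0702, edgeR). Leaving out single e1 birds ended the calls of A306_00006815 (without bird 12 or bird 4, adjusted p up to 0.058), A306_00010282 (without birds 11, 12, 3 or 4, up to 0.0916) and A306_00011001 (without birds 11, 12 or 1, up to 0.0826).

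The most abundant called transcripts were all lower in 2020. A306_00005132 had 3451, 1635 and 1601 CPM in e1 of 2020 against 5521, 5443 and 4199 CPM in e1 of 2017, a log2 fold change of -1.18 ± 0.33 (SE; adjusted p = 0.0366, edgeR). A306_00012645 had 2827, 2013 and 1989 CPM against 4555, 4624 and 4409 CPM, a log2 fold change of -0.99 ± 0.20 (SE; adjusted p = 0.00787, edgeR). In both, bird 6 was the highest of the 2020 birds and still lay below every 2017 bird. A306_00006116 had 2279, 2799 and 2050 CPM in 2020 against 4094, 4128 and 3701 CPM in 2017, a log2 fold change of -0.74 ± 0.14 (SE; adjusted p = 0.00551, edgeR). A306_00014964 had 2814, 1455 and 1546 CPM against 3649, 4158 and 3556 CPM, a log2 fold change of -0.97 ± 0.28 (SE; adjusted p = 0.0405, edgeR). Of the 50 genes most abundant in e1 collars, 7 (14%, against 3.59% of all genes) were called lower in 2020 and 1 (2%, against 3.86%) was called higher. In the wider class above a mean log2 CPM of 8, given above, more genes were called higher than lower. A306_00005132 and A306_00014964 lost their calls when any single e1 bird other than bird 6 was left out, with adjusted p up to 0.154 and 0.166, and kept their direction. In a fit of the 6 e1 birds alone none of these 4 genes was called (adjusted p = 0.0546 to 0.0944, edgeR).

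In the called genes, which were chosen in these same birds, the 3 later birds were not equally far from the earlier ones. The counts that follow were not made over all genes. Bird 6 was the 2020 bird nearest to the 2017 mean in 213 of the 503 higher genes, against 147 for bird 11 and 143 for bird 12, and in 245 of the 468 lower genes, against 163 and 60. Across genes, log2 values of birds 11 and 12 correlated at r = 0.984, and those of bird 6 at 0.9755 with bird 11 and 0.971 with bird 12. In 2017, birds 1 and 4 correlated at 0.988 and bird 3 at 0.979 and 0.978 with them. Pairs across batches ranged from 0.959 to 0.973. With birds 1, 3 and 4 of 2017, bird 6 correlated at 0.972, 0.972 and 0.967. Bird 11 did so at 0.973, 0.969 and 0.973, and bird 12 at 0.967, 0.959 and 0.968. Over all genes, bird 6 was thus not clearly nearer to the 2017 birds than bird 11. These correlations are across genes, which are not independent replicates. The spread between birds, as the median over genes of the SD of log2(CPM + 0.5), was 0.26 in e1 of 2020, 0.18 in e1 of 2017, 0.21 in wild type of 2020 and 0.22 in wild type of 2017.

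The count of called genes depended on single birds. The total of 971 became 565 without bird 11 and 370 without bird 12 of 2020, and 432, 587 and 259 without birds 1, 3 and 4 of 2017. It was 1096 without bird 6, with 507 higher and 589 lower genes. Leaving out bird 3 shifted the balance, to 392 higher and 195 lower genes. Fitted on the 6 e1 birds alone, where the spread comes from those birds only, the same test called 128 higher and 68 lower genes.

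**Figure D2:**
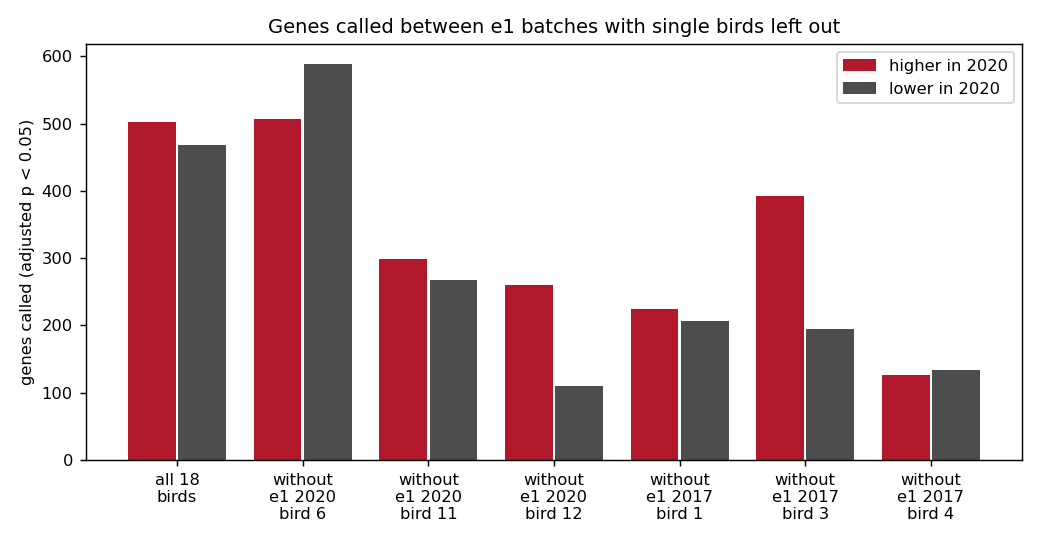
Genes called between e1 batches (edgeR, adjusted p under 0.05), higher in 2020 in red and lower in 2020 in grey, with all 18 homozygous birds and with each e1 bird left out in turn. The bars start at 503 and 468 with all birds and are lowest without bird 4 of 2017, at 126 and 133.

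Wild-type collars, which share no bird with the e1 collars, shifted between the same batches in more genes: 1619 (12.4%) were called higher and 1820 (14%) lower in 2020 (edgeR; 5 against 4 birds). Of the 503 genes higher in e1, 417 were also called higher in wild type, which is 82.9% of the e1 set and 25.8% of the wild-type set. Of the 468 lower in e1, 410 were also called lower in wild type, 87.6% of the e1 set and 22.5% of the wild-type set. No gene was called in opposite directions. The median wild-type shift was 0.66 over the genes higher in e1 and -0.66 over those lower in e1, beside their e1 medians of 0.78 and -0.66. Conversely, of the 1619 genes higher in wild type, 1589 had a shift of the same sign in e1, with a median e1 shift of 0.46 beside a wild-type median of 0.60. Of the 1820 lower in wild type, 1750 kept the sign in e1, with a median of -0.42 beside -0.65. Each set was chosen for its shift in 1 genotype, and that choice tends to enlarge the median there. The gaps between these medians are therefore no measure of which genotype shifted more.

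Across all genes tested, called or not, the shifts had the same sign in 10034 genes (77.0%), with Pearson's r = 0.639 and Spearman's rho = 0.671 between the e1 and the wild-type log2 fold change. The points share the batches and the scaling of libraries, and genes are not independent, so these values are descriptive. No gene was called for a difference between the e1 shift and the wild-type shift, that is 0% of 13026 (edgeR's interaction contrast; smallest adjusted p = 0.992). At an unadjusted p under 0.05 the same contrast gave 467 genes (3.59%), and DESeq2 called 0. The 95% interval of this contrast fell inside 1 log2 unit either side of 0, that is a 2-fold difference, in 7952 genes (61%) and in 807 of the 971 genes called in e1. For the remaining genes a 2-fold difference between genotypes was not excluded.

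**Figure D3:**
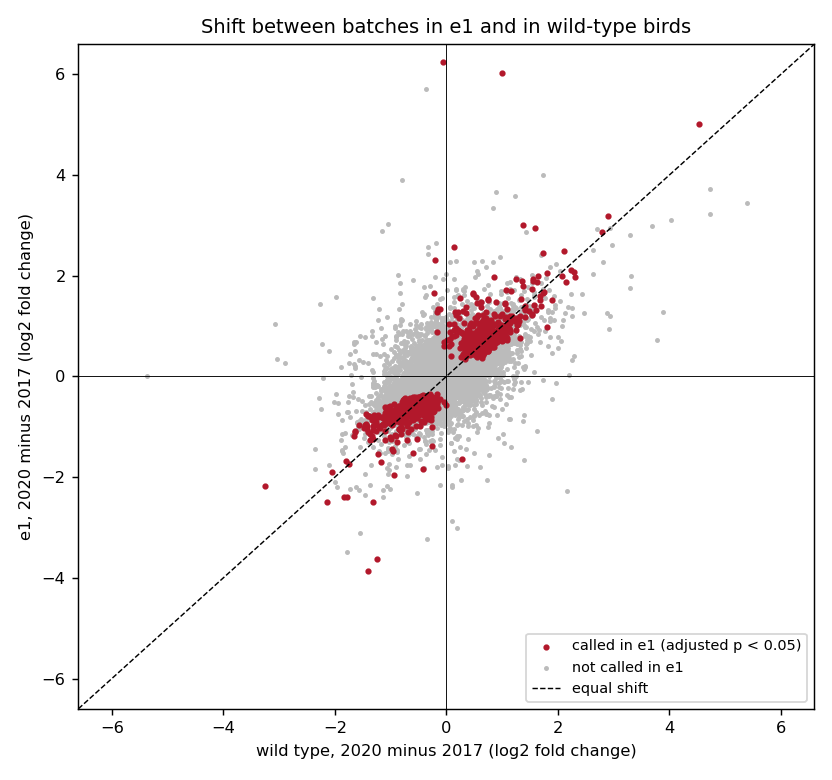
Log2 fold change between batches (2020 over 2017) in e1 birds against that in wild-type birds, for the genes tested; genes called in e1 are red, the dashed line marks equal shifts, and 1 gene lies outside the axes. Most called genes lie at the upper right or lower left, near the dashed line, and A306_00002302 stands at 5.00 in e1 and 4.52 in wild type.

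A call in e1 without a call in wild type was made for 144 genes, 86 higher and 58 lower in 2020. Only 11 of these had the opposite sign in wild type, and none was called for the difference of shifts. For that difference 48 reached an unadjusted p under 0.05 in the edgeR contrast, where 3.59% of all genes did. The smallest was 0.00124. A call in 1 genotype and none in the other favours genes whose shifts differ, so the 48 are partly set by that choice. In 66 of the 144 the 95% interval of the contrast excluded a 2-fold difference, against 61% of all genes. The smallest unadjusted p over all genes belonged to A306_00001008, which is singled out here after its values were seen. It had 225, 155 and 204 CPM in e1 of 2020 against 135, 170 and 136 CPM in e1 of 2017, and wild-type ranges of 248 to 422 CPM in 2020 and 570 to 829 CPM in 2017. Its shifts were 0.41 ± 0.24 in e1 and -1.07 ± 0.20 in wild type (SE), a difference of 1.48 ± 0.31 (SE; edgeR, unadjusted p = 1.94e-04, adjusted p = 0.992). A306_00014154, likewise singled out, had 197, 164 and 216 CPM in e1 of 2020 against 48.1, 95.6 and 38.1 CPM in e1 of 2017, with a log2 fold change of 1.67 ± 0.41 (SE; adjusted p = 0.0208, edgeR). In wild type it stood at 519 to 1472 CPM in 2020 and 870 to 1559 CPM in 2017, so that it was lower in every e1 bird than in any wild-type bird while differing between the e1 batches.

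To ask whether transcripts lost or gained in recessive red held their level, lists were drawn from birds that carry the other recessive red allele. In a fit of 3 e2 and 5 wild-type birds of 2020, 84 of 12706 genes (0.661%) were lower and 142 (1.12%) higher in e2 (edgeR, adjusted p under 0.05). No e1 bird entered that choice, but the wild-type birds of 2020 did. The e1 shift and the contrast of e1 with wild type in 2017 were thus not used in the fit that drew the lists. By contrast, the comparison of e1 with wild type of 2020 and the wild-type shift of these genes share birds with that fit. The lists were also planned with earlier results of these data known. Their members are termed lost and gained below whatever the size of the change. No minimum fold was set, and the smallest log2 fold changes in e2 were -0.53 (A306_00011694) and 0.49 (A306_00004304).

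As a set, transcripts lost in e2 stood low in both e1 batches. Over the 84 genes, the median log2 fold change of e1 over wild type was -1.17 in 2020 and -1.24 in 2017, beside -1.64 for e2 over wild type. The e1 mean was below wild type in 83 of the 84 genes in 2020 and in 78 in 2017. Shares of all genes with that sign are not given here, so both counts are descriptive. A306_00005021, named after its values were seen, was above wild type in both years, by 0.58 in 2020 and 2.12 in 2017 on the log2 scale. Wild-type birds of 2020 helped to choose the list, so the 2020 contrasts with wild type here are partly set by that choice. The 2017 contrasts share no bird with it. In 2017 all 3 e1 birds lay below all 4 wild-type birds in 56 of the 84 genes (66.7%), against 4.59% of all genes tested. Together the 84 genes took 0.188%, 0.218% and 0.228% of the scaled counts in e1 birds 6, 11 and 12 of 2020 and 0.162%, 0.180% and 0.157% in e1 birds 1, 3 and 4 of 2017. In wild type they took 0.660% to 1.31% in 2020 and 0.762% to 1.12% in 2017, above every e1 bird. Much of that wild-type share belonged to A306_00007909. The other 83 genes took 0.187% to 0.227% in e1 of 2020 and 0.157% to 0.180% in e1 of 2017, against 0.351% to 0.457% in wild type of 2020 and 0.255% to 0.403% in wild type of 2017, still with no overlap between genotypes.

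Between e1 batches the median log2 fold change of the lost transcripts, 2020 over 2017, was 0.19, with quartiles of -0.11 and 0.77, and it exceeded 0 in 58 of 84. Over the 32 genes lowered by at least 2 log2 units in e2 the median was 0.54, with 2 genes called higher, where 3.86% of all genes were. These were A306_00009490 and A306_00008195, the latter through bird 6 as given below. Some of the 32 had few counts in e1, such as A306_00002053 with 3 in 2020 and 0 in 2017, and A306_00012284 with 0 and 3. Of the 84, 7 were called higher (8.33%, against 3.86% of all genes) and 1 lower (1.19%, against 3.59%). The 7 became 3 without bird 1 of 2017, where 225 of 13156 genes were called higher. They also became 3 without bird 4 of 2017, where 126 of 13155 genes were. In a fit of the 6 e1 birds alone, 3 of 71 members tested were called higher and 0 lower, where 128 and 68 of 12621 genes were. In 69 of the 84 genes the estimate was under 2-fold either way. Over all genes tested the median shift was 0.01. The shares of all genes with a shift above 0 or under 2-fold are not given here, so 58 and 69 are descriptive. The 95% interval excluded a 2-fold change in 37 (44.0%), against 64.9% of all genes tested, so for the other 47 genes these birds did not bound the shift that closely. A batch had no count in 2 of the genes, and both had 3 counts or fewer in 3.

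**Figure D4:**
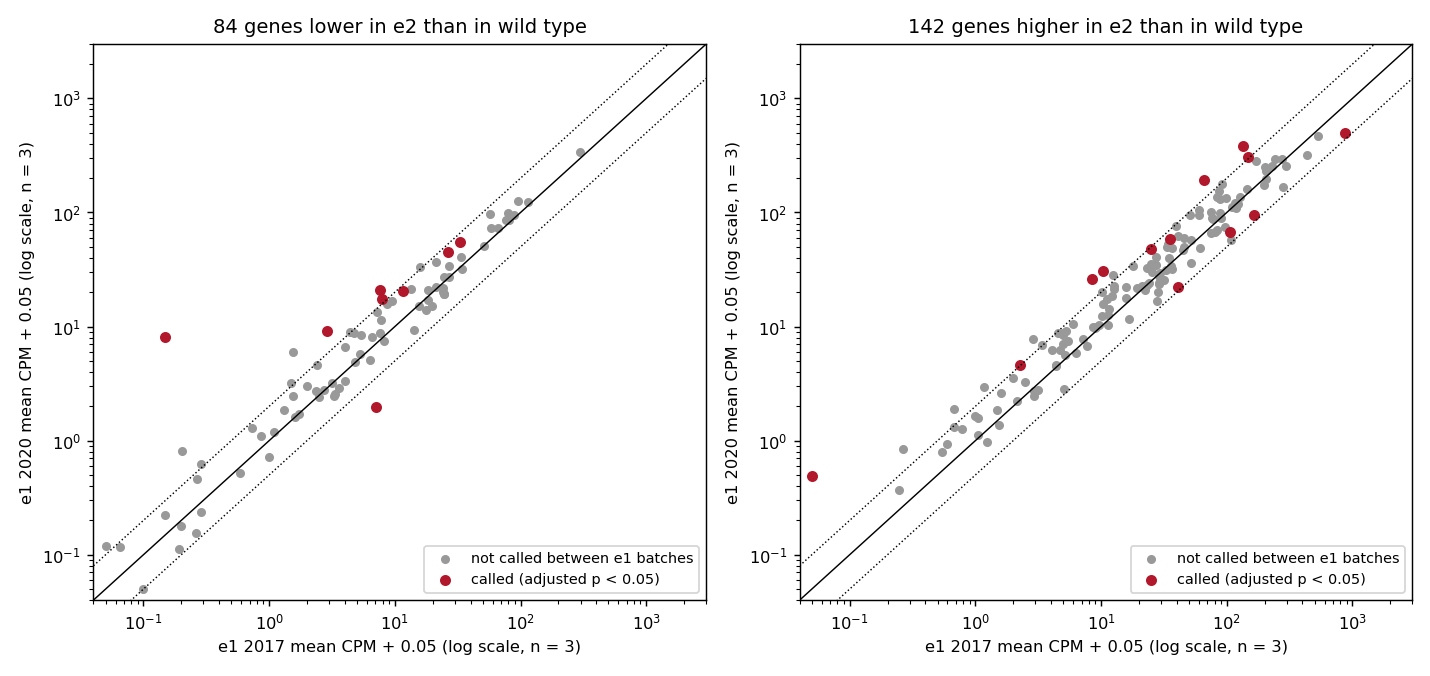
Mean CPM + 0.05 in e1 of 2020 (vertical) against e1 of 2017 (horizontal), both on log scales, for the 84 genes lower (left) and the 142 genes higher (right) in e2 than in wild type; the solid line marks equal levels and the dotted lines a 2-fold difference, and called genes are red. Most points of both lists lie between the dotted lines, and A306_00008195 stands apart at the left edge of the left panel with 8.10 CPM in 2020 and 0.0987 CPM in 2017.

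Of the 5 lost transcripts named by rule, A306_00005498 held its level most closely. It had 5.99, 8.26 and 7.89 CPM in e1 of 2020 and 7.24, 9.76 and 7.37 CPM in e1 of 2017, with overlapping birds and a log2 fold change of -0.14 ± 0.27 (SE; adjusted p = 0.790, edgeR). Its wild-type range was 109 to 206 CPM in 2020 and 113 to 203 CPM in 2017, and the e2 birds averaged 8.28 ± 1.31 CPM (SD, n = 3). Among the 37 genes whose interval excluded a 2-fold change, A306_00010436 and A306_00001914 had the next largest deficits against wild type of 2017, and are named after their values were seen. A306_00010436 averaged 3.17 CPM in e1 of 2020 and 3.12 CPM in e1 of 2017, and A306_00001914 averaged 17.1 and 18.4 CPM. Their log2 fold changes over wild type were -2.61 in 2020 and -2.39 in 2017 for A306_00010436, and -1.74 and -2.35 for A306_00001914.

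A306_00007909, one of the most abundant transcripts of wild-type collars, was nearly absent from all 6 e1 birds. It had 7.24, 3.23 and 7.41 CPM in e1 of 2020 against 0.962, 1.43 and 2.11 CPM in e1 of 2017, where wild type ranged from 2814 to 7890 CPM in 2020 and from 5494 to 8007 CPM in 2017. The residue was higher in every e1 bird of 2020 than in any of 2017, yet the log2 fold change of 1.98 ± 0.67 did not pass the test (SE; adjusted p = 0.0791, edgeR). DESeq2 called it, with an adjusted p of 0.0252. A306_00006269 and A306_00002019 were at the limit of detection in e1. A306_00006269 had 2, 2 and 1 counts in e1 of 2020 and 3, 8 and 2 counts in e1 of 2017, and A306_00002019 had 3, 6 and 0 counts against 4, 6 and 4 counts. The 95% intervals of their shifts reached 3.24 and 1.99 log2 units either side of the estimate. At these counts a modest difference between batches was therefore not detectable.

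A306_00008195 had the largest shift between e1 batches among the lost transcripts, and it had it through a single bird. E1 bird 6 of 2020 had 402 counts, or 23.8 CPM, whereas birds 11 and 12 had 3 and 4 counts (0.194 and 0.277 CPM). The e1 birds of 2017 had 1, 3 and 2 counts (0.0566, 0.134 and 0.105 CPM). Wild type ranged from 5.85 to 14.96 CPM in 2020 and from 5.37 to 14.1 CPM in 2017, so bird 6 lay above every wild-type bird and the other 5 e1 birds lay below all of them. The called log2 fold change of 6.24 ± 1.44 (SE; adjusted p = 0.0167, edgeR) became 1.16, with an adjusted p of 0.478, when bird 6 was left out. The call was also lost without bird 1, 3 or 4 of 2017, at adjusted p of 0.0627, 0.0517 and 0.0714 (edgeR).

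The other 6 lost transcripts called higher in e1 of 2020 had a mean below that of wild type in both years. A306_00009490 had 22.7, 19.8 and 20.1 CPM in e1 of 2020 against 9.96, 5.19 and 7.42 CPM in e1 of 2017, a log2 fold change of 1.47 ± 0.25 (SE; adjusted p = 0.00413, edgeR). It still lay below wild type in each year, by -1.22 in 2020 and -2.08 in 2017 on the log2 scale. A306_00002056 had 7.53, 9.36 and 10.6 CPM against 2.83, 2.95 and 2.68 CPM, a log2 fold change of 1.69 ± 0.35 (SE; adjusted p = 0.00973, edgeR), and A306_00002531 had 27.5, 11.4 and 13.4 CPM against 9.16, 7.21 and 7.11 CPM, a log2 fold change of 1.16 ± 0.33 (SE; adjusted p = 0.0401, edgeR). For A306_00002056 all 3 e1 birds of 2020 lay within the wild-type range of that year, 7.17 to 18.3 CPM. Its e1 birds of 2017 lay below the wild-type range of 2017, 3.67 to 7.35 CPM. Wild type shifted by 0.61, 1.16 and 0.52 in A306_00009490, A306_00002056 and A306_00002531, and none was called for a difference of shifts (edgeR, adjusted p = 0.992 for each). A306_00003097, A306_00000970 and A306_00002159 rose by 0.76, 0.72 and 0.81, against 0.88, 0.56 and 0.32 in wild type. The single fall was that of A306_00005844, given above. Its level in e1 of 2017 was near that of wild type, with a log2 fold change of -0.09 over wild type of 2017, against -1.51 in 2020. These members are named after their values were seen.

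Transcripts gained in e2 stood above wild type in e1 of 2020 and near wild type in e1 of 2017. Over the 142 genes, the median log2 fold change of e1 over wild type was 0.88 in 2020 and 0.12 in 2017, beside 1.35 for e2 over wild type. The e1 mean was above wild type in 141 of the 142 genes in 2020 and in 92 in 2017. Shares of all genes with that sign are not given here, so both counts are descriptive. In 2017 all 3 e1 birds lay above all 4 wild-type birds in 7 of them (4.93%), against 2.27% of all genes tested, whereas in 2020 all 3 e1 birds lay above all 5 wild-type birds in 86, against 4.61% of all genes. The 2020 values share their wild-type birds with the choice of the list, and the 2017 values do not.

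Within e1, the gained transcripts shifted by a median log2 fold change of 0.19, with quartiles of -0.08 and 0.69. The shift exceeded 0 in 101 of 142, and the median over all genes was 0.01. Shares over all genes are not given for this count or for that of estimates under 2-fold. Of the 142, 9 were called higher in 2020 (6.34%, against 3.86% of all genes) and 4 lower (2.82%, against 3.59%), and in 128 the estimate was under 2-fold either way. In a fit of the 6 e1 birds alone, 2 of 139 members tested were called higher and 0 lower, where 128 and 68 of 12621 genes were. With DESeq2 the 9 became 15, where 798 of 11649 genes were called higher. The 4 became 2 without bird 3 or bird 4 of 2017 or bird 11 or bird 12 of 2020. Each of those fits called fewer genes over all tested, as given above. Over the 32 genes raised by at least 2 log2 units in e2 the median shift was 0.65, with 1 gene called higher, where 3.86% of all genes were. That gene was A306_00014952, with 22 counts in e1 of 2020 and 0 in e1 of 2017. The interval excluded a 2-fold change in 60 (42.3%, against 64.9% of all genes). The wild-type median shift of the same genes was -0.49, so that the larger excess of e1 over wild type in 2020 came with a lower level in wild type of 2020 as well as a slightly higher one in e1. That wild-type level was part of the choice.

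Individual e1 birds differed in these genes within each year. The median over the list of the difference from the wild-type mean of the same year, on the log2(CPM + 0.5) scale, was 1.13 in bird 6, 0.59 in bird 11 and 0.76 in bird 12 of 2020. In 2017 it was -0.04 in bird 1, 0.43 in bird 3 and 0.00 in bird 4. Single wild-type birds ran from -0.07 to 0.07 in 2020 and from -0.22 to 0.35 in 2017 on this measure. Wild-type bird 2 of 2017, at 0.35, thus lay above e1 birds 1 and 4 and not far below bird 3. Bird 6 was the highest of the 2020 e1 birds in 100 of the 142 genes (70.4%, against 37.4% of all genes), and bird 3 the highest of the 2017 e1 birds in 105 (73.9%, against 38.6%). For the 84 lost transcripts the same measure was even, at -1.06, -1.21 and -1.07 in birds 6, 11 and 12 and -1.09, -0.93 and -1.13 in birds 1, 3 and 4.

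**Figure D5:**
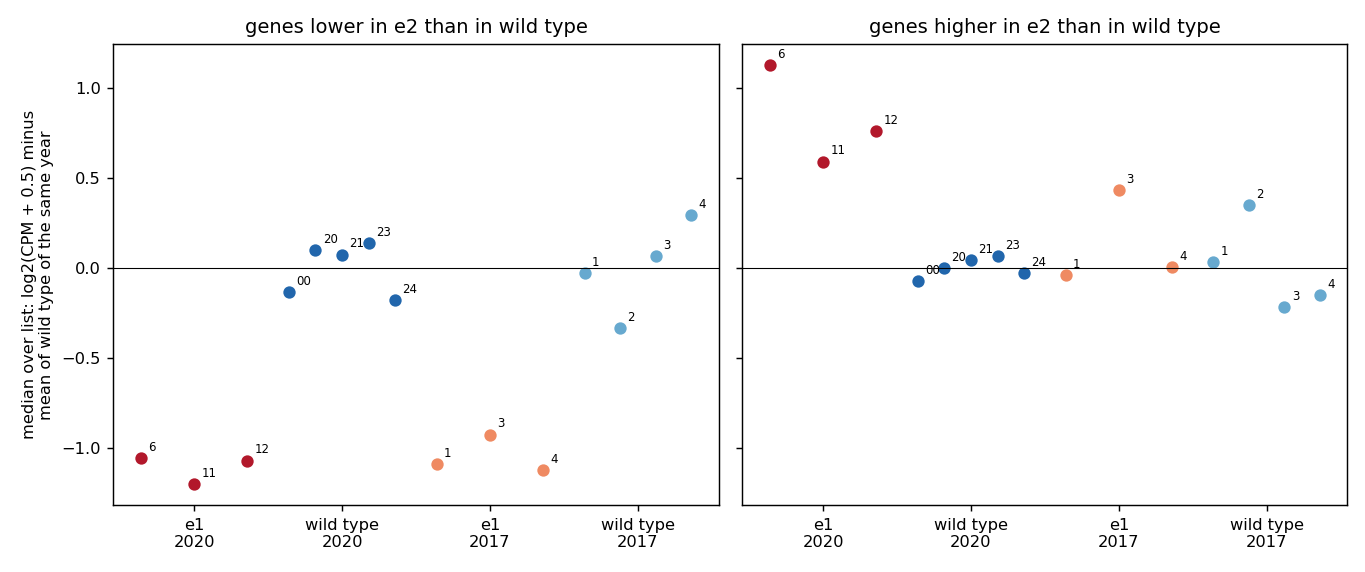
Median over the genes lower (left) or higher (right) in e2 of log2(CPM + 0.5) minus the mean of wild type of the same year, 1 point a bird with its number, for e1 and wild type of 2020 and e1 and wild type of 2017. On the left the 6 e1 birds lie between -1.21 and -0.93. On the right the e1 birds of 2020 lie between 0.59 and 1.13, and those of 2017 near 0 except bird 3 at 0.43. Wild-type birds of 2017 on the right spread from -0.22 to 0.35.

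The values of the gained transcripts depended on bird 3. Without it, the median e1 shift of the 142 genes was 0.52 instead of 0.19, with 24 called higher (16.9%, where 2.98% of all genes were) and 2 lower (edgeR), and the median excess over wild type of 2017 was -0.03 instead of 0.12. Also without bird 3, 40 of 13159 genes tested were called for a difference between the e1 and the wild-type shift. All had the larger value in e1 (edgeR, smallest adjusted p = 0.00826). Of the 40, 23 had an unadjusted p under 0.05 in the same edgeR contrast with all birds, where 3.59% of all genes did. The contrasts share every bird but bird 3. Among the 40, 8 belonged to the 142, a list of 1.12% of the genes in its own fit. The wild-type birds of 2020 entered both this difference and the choice of the 142, so that overlap is partly set by the choice. Without bird 6 the median excess over wild type of 2020 was 0.65 instead of 0.88, and 8 of the 142 (5.63%) were called higher and 8 lower, where 3.85% and 4.47% of all genes were.

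The 5 gained transcripts named by rule were not called between e1 batches (edgeR, adjusted p = 0.415 to 0.915). A306_00001293 was high in all e1 birds, with 23.2, 13.4 and 15.3 CPM in 2020 and 13.7, 8.59 and 11.2 CPM in 2017. Its wild-type birds had 0.543 to 1.98 CPM in 2020 and 0.822 to 12.1 CPM in 2017, so the e1 and wild-type birds of 2017 overlapped through 1 wild-type bird. A306_00014562 had 163, 66.1 and 59.0 CPM in e1 of 2020 against 56.5, 43.0 and 79.8 CPM in e1 of 2017. In wild type it had 7.51 to 35.3 CPM in 2020 and 44.6 to 108 CPM in 2017, so that e1 exceeded wild type in 2020 and lay within its range or just below it in 2017.

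A306_00000788 showed how far single birds could go. It had 724, 325 and 353 CPM in e1 of 2020 against 117, 1372 and 109 CPM in e1 of 2017, where bird 3 was above every other bird of the 6. Its log2 fold change of -0.19 ± 0.84 (SE; adjusted p = 0.915, edgeR) became 2.05 without bird 3, which was not called either (adjusted p = 0.131). A306_00009230 had 0.415, 1.16 and 2.08 CPM in e1 of 2020 and 0.453, 1.16 and 0.579 CPM in e1 of 2017, far under the e2 mean of 8.88 ± 4.96 CPM (SD, n = 3). A306_00006521 had 2.49, 0.516 and 1.73 CPM against 1.13, 1.03 and 0.684 CPM, with an e2 mean of 8.28 ± 4.45 CPM (SD, n = 3). Both were therefore near their wild-type range in e1 of either year, at 0.417 to 1.14 CPM in 2020 and 0.387 to 1.35 CPM in 2017 for A306_00009230 and 0.541 to 2.37 CPM and 0.339 to 4.78 CPM for A306_00006521.

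Of the 9 gained transcripts called higher in e1 of 2020, named after their values were seen, 8 rose by 0.73 to 1.65 on the log2 scale, and the other had no count in e1 of 2017. A306_00008124 had 440, 322 and 383 CPM in e1 of 2020 against 117, 193 and 90.9 CPM in e1 of 2017, a log2 fold change of 1.51 ± 0.31 (SE; adjusted p = 0.00936, edgeR). A306_00008340 had 281, 138 and 164 CPM against 48.7, 110 and 41.0 CPM, a log2 fold change of 1.55 ± 0.31 (SE; adjusted p = 0.00795, edgeR). In wild type they shifted by 0.75 and 0.24, and over wild type of 2017 the e1 birds stood at 1.12 and -0.30 on the log2 scale. A306_00007181 and A306_00001892 rose by 1.65 ± 0.31 and 1.57 ± 0.28 (SE; adjusted p = 0.00666 and 0.00507, edgeR), and bird 6 was the highest of the 3 later birds in both, with 35.3 and 47.9 CPM. A306_00004214, A306_00011142, A306_00006266 and A306_00008762 rose by 1.07, 1.05, 0.93 and 0.73.

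A306_00014952 was listed at 0 in all 3 e1 birds of 2017 and had 21, 1 and 0 counts in e1 birds 6, 11 and 12 of 2020. Set against a floor of 3 counts over the 2017 group, its level was at least 9.25-fold higher in 2020, through bird 6 alone. The e2 birds had 1.06, 1.35 and 2.58 CPM, and the wild-type birds of both years reached at most 0.0596 CPM. The 4 gained transcripts called lower in 2020 were A306_00005934, A306_00011466, A306_00014233 and A306_00014607, with log2 fold changes of -0.87, -0.82, -0.66 and -0.79. Wild type shifted by -0.95, -0.96, -0.99 and -1.40 in these genes, and e1 of 2017 had differed from wild type of 2017 by at most 0.10 on the log2 scale.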

How the data were processed

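The authors deposited raw counts per gene of a gene set headed Cliv2.1, per the file headers, for 19 birds and 15392 genes, 207 of them at 0 throughout. The authors also deposited output of DESeq2: a mean signal, log2 fold changes, test scores and p-values. These columns served only as the source of an alternative pair of lists: 474 lower and 398 higher genes of 14283 with an adjusted p in the authors' deposited table. Aligner, counter and strand setting are not given in the sources, so overlapping, antisense and near-identical genes cannot be told apart. Of the identifiers, 0 matched a RefSeq table of 22830 pigeon genes (assembly bColLiv1.pat.W.v2).

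Counts of 18 homozygous birds were fitted with edgeR 4.0.16 (R 4.3.3), with filterByExpr, TMM scaling and a coefficient for each genotype and batch, and tested by quasi-likelihood with Benjamini-Hochberg adjustment over 13026 genes at 0.05. CPM are counts over TMM-scaled library size. The SE of a fold change is its size over the square root of F. Scripts were tested on simulated counts. Labels do not say that birds are unrelated, so p-values measure the spread between these birds.

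Genes were named by rule: up to 8 a direction with the largest called shift, no overlap between batches and log2 CPM averaging at least 1, the 4 most abundant called genes, and the 5 most changed genes a direction in e2. Members, lists and rules were chosen with earlier results of these data known. Alternatives were DESeq2 (1.42.0) or its size factors, upper-quartile scaling, other filters on low counts, a minimum fold, the compared birds alone, other lists, a replicate block and leaving out each bird.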

Additional observations from a re-analysis of the deposited data

Results flagged for a closer look

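Among 60 checks of named genes in the wild-type groups of 4 or 5 birds, 6 found a single bird far from the others of its group, where chance gives about 1 in 20; the e1 groups of 3 birds are too small for this check. Wild-type bird 23 of 2020 was apart in 3 genes. It had 12.1 CPM of A306_00015105, where the other birds of the group had 5.41 to 6.69 CPM, 21.4 CPM of A306_00015684, where they had 5.60 to 6.11 CPM, and 92.7 CPM of A306_00000788, where they had 25.9 to 44.8 CPM. Wild-type bird 20 of 2020 had 14.96 CPM of A306_00008195, where the others had 5.85 to 8.34 CPM. In 2017, wild-type bird 4 had 10.7 CPM of A306_00002302, where the others had 6.82 to 7.41 CPM, and wild-type bird 2 had 12.1 CPM of A306_00001293, where the others had 0.822 to 2.15 CPM. Each value is that of a comparison bird and enters the wild-type shift of its gene directly and the e1 test only through the shared estimate of the spread.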

How the results depend on the processing

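The 971 genes called between e1 batches became 1557 with DESeq2 (951 shared), 196 in a fit of the 6 e1 birds alone (183 shared) and 176 when at least a 2-fold difference was required; leaving out single birds gave 259 to 1096. With e1 bird 6 of 2020 and e1 bird 3 of 2017 both left out, an alternative chosen after seeing the data, it was 629, and 13 genes differed between the e1 and wild-type shift. The wild-type count of 3439 became 518 with that minimum and 2300 to 3147 without single birds. The 0 genes called for the difference of shifts became 40 without bird 3 of 2017 and 1 without bird 6 of 2020 (A306_00011652, -2.93 ± 0.37 SE, edgeR adjusted p = 0.00803). The median e1 shift of the genes higher in e2 ranged from 0.076 to 0.52 without single birds, and that of the genes lower in e2 from 0.15 to 0.21. With lists of at least 2 log2 units in e2 (32 genes each) these medians were 0.65 and 0.54. Other scalings and filters left all these results within 1.5 times the count or the spread between birds. Of 251 values of the 21 called named genes, 218 stayed called, 33 lost the call and 0 changed sign; 26 of the losses came from leaving out a bird. Among uncalled genes signs turned: without single e1 birds, A306_00005498 ranged from -0.24 to 0.012 (bird 3 of 2017), A306_00000788 from -0.67 to 2.05 (bird 3; 0.019 without bird 11 of 2020) and A306_00002019 from -1.26 to 0.25 (bird 12 of 2020). The cause of these changes was not tested. Bird numbers are shared only by e1 and wild type of 2017. Their deviations from the group means correlated at -0.19, -0.08 and -0.14 for numbers 1, 3 and 4, which gave no sign of pairing by number. Such correlations cannot show that birds of equal number were unpaired. With the numbers as a replicate block, 0 genes were called for the difference of shifts.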

Other observations

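The other birds of 2020 followed the year in the genes called between e1 batches. The e2 mean was nearer to e1 of 2020 than to e1 of 2017 in 915 of the 971 genes (94.2%), against 68.2% of all genes tested. The single carrier of e1, which entered no fit, was nearer to wild type of 2020 than to wild type of 2017 in 923 of the 971 (95.1%), against 75.1% of all genes. The choice of genes used the e1 birds of both years, and the e2 birds and the wild-type birds are of the same batches. Called genes have a gap between the e1 years, and most were also called between the wild-type years. Genes without such a gap are in the share over all genes, which is therefore no like baseline. Part of each rise is set by the choice of genes.

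Some called genes had consecutive identifiers. Genes higher in e1 of 2020 formed 27 such runs with 55 genes, and genes lower formed 26 with 54. The longest in each direction held 3. Sets of this size hold some such runs in any case. How many was not counted, so these numbers are descriptive. The longest lower run joined A306_00006815 to A306_00006814 and A306_00006813, with e1 shifts of -1.96, -0.67 and -0.44 and wild-type shifts of -0.95, -0.71 and -0.68. The longest higher run was A306_00014148, A306_00014149 and A306_00014150, with e1 shifts of 0.70, 0.60 and 0.60. Whether consecutive identifiers mark neighbouring genes is not given in the sources used here.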
